A study of Mus musculus with 10 samples.

Results

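The IL-1 and IL-36 cytokine family was followed through 10 genes chosen by name: the ligands Il1a, Il1b, Il1f6, Il1f8, Il1f9, Il18 and Il33, the antagonists Il1rn and Il1f5, and the receptor Il1rl2. They are 10 of the 17983 genes listed in the deposited files, every library listed all of them, and all 10 passed the filter on low values. Their transcripts were measured by RNA sequencing of keratinocytes released from the dispase-separated back skin epidermis of mice, in 10 libraries. Control mice, wild type per the labels, gave 3 libraries after olive oil/acetone and 2 after water. Mice of the genotype Gsdma1KO/KO;Gsdma3fx/fx;K14-Cre, called knockout below, gave 3 libraries after olive oil/acetone and 2 after water. Acetone and olive oil were mixed 4 to 1, either liquid was rubbed on the back 2 times a day for 3 days, and all groups were collected on day 5. In the knockout, Gsdma1 is lost throughout the animal and Gsdma3 is removed by a recombinase driven by the keratin 14 promoter, which is active in basal keratinocytes of the epidermis and hair follicle. The labels do not say whether control mice carried the floxed allele or the recombinase, and they give no age. Separate animals are not stated for the libraries either, and the p-values below then reflect library-to-library spread, part of which could be technical.

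Cytokines of this family are danger signals of the skin. IL-1α, IL-1β and the IL-36 cytokines bind a receptor of their own together with the shared accessory chain IL-1RAP and signal through MyD88 to NF-κB, while the antagonists occupy the receptor without signalling. Il1f6, Il1f8 and Il1f9 encode IL-36α, IL-36β and IL-36γ, epithelial agonists of the receptor that Il1rl2 encodes, and Il1f5 encodes the antagonist of that receptor. Several members need proteolytic processing or leave the cell through membrane pores, and gasdermins are pore-forming proteins, so a transcript level is not a level of active cytokine.

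The 4 IL-36 genes and Il1rn lie close together on mouse chromosome 2, in GRCm38 coordinates Il1f8 at chr2:24153161-24160519, Il1f9 at chr2:24186476-24193568, Il1f6 at chr2:24215418-24225702, Il1f5 at chr2:24276954-24283426 and Il1rn at chr2:24336853-24351494, all on the plus strand within 198 kb. Il1a (chr2:129299610-129309972) and Il1b (chr2:129364570-129371139) lie farther along that chromosome on the minus strand, and Il1rl2 (chr1:40324610-40367562), Il18 (chr9:50554827-50581840) and Il33 (chr19:29925114-29960718) on others. Exons of Il1a share 222 bases with Gm14023 on the opposite strand and exons of Il1b share 25 bases with its antisense gene Il1bos. The strand setting of the counting is not given in the sources used here, so reads in those stretches cannot be assigned to a strand, and the other 8 members share no exon with another gene. The 4 RefSeq promoters (GRCm38.p6) are shown because the first 3 belong to neighbouring genes that moved together in the libraries and the last to Il1b, which did not move with them. Each is the 250 bases before the transcription start, on the gene's strand, and capitals mark matches to the motifs named after them. The windows are chr2:24152922-24153171 (plus), chr2:24186226-24186475 (plus), chr2:24276704-24276953 (plus, the first of 2 listed starts) and chr2:129371140-129371389 (minus).
Il1f8: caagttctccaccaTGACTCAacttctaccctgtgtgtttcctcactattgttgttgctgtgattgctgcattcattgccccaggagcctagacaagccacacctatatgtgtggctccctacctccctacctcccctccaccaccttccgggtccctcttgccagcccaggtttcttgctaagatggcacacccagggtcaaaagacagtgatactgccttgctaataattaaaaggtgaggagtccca
Il1f9: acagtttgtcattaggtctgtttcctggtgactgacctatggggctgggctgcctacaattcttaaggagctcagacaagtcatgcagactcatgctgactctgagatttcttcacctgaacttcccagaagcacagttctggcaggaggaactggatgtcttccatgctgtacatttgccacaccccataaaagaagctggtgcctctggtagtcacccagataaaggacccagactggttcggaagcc
Il1f5: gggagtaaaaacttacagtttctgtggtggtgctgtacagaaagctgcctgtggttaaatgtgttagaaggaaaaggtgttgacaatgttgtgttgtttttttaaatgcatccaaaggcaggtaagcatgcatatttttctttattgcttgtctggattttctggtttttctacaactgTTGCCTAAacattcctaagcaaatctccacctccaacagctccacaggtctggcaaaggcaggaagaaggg
Il1b: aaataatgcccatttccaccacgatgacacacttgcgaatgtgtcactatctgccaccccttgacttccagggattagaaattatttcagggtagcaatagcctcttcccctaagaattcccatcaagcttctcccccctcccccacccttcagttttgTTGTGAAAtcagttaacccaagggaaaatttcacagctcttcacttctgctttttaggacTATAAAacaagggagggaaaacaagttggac
The motifs searched on both strands were AP-1 (TGANTCA), C/EBP (TTNNGNAA), the TATA box (TATAAA) and the NF-κB consensus. Il1f8 held an AP-1 match at -236 to -230, Il1f5 a C/EBP match at -71 to -64, and Il1f9 no match. Il1b held a C/EBP match at -91 to -84 and a TATA box at -31 to -26. For 9 members, 13 starts were listed, of which 3 held AP-1, 8 C/EBP, 6 a TATA box and 0 NF-κB, whereas 6.75%, 36.9%, 12.4% and 3.90% of 32851 promoters of the same length did. The TATAAA matches of Il18, Il1rl2 and the first listed Il33 start began at -175, -166 and -203, farther from the start than that of Il1b. Listed starts 2 and 3 of Il1rn have overlapping windows that share a C/EBP match, so it entered the count at both. A match describes letters in the window, not a site in use.

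Levels are given as normalised read counts, the authors' read count per gene divided by a size factor per library. The libraries held 15914663 to 21812292 reads in listed genes. All 12 keratinocyte markers were present in every library, with summed levels of 787119 to 1252280. Gsdma3 was 103 ± 64.1 (SD, n = 3) in controls and 0.299 ± 0.519 (SD, n = 3) in knockouts under olive oil/acetone, and 173 ± 156 (SD, n = 2) against 1.32 ± 1.87 (SD, n = 2) under water. Gsdma, the Gsdma1 transcript, was 602 ± 113 (SD, n = 3) against 496 ± 307 (SD, n = 3) under olive oil/acetone. Under water Gsdma measured 200 and 527 in controls against 170 and 170 in knockouts, without overlap. Which exons its knockout allele lacks is not given in the sources used here, so its level does not check that allele. Y-linked Ddx3y was at 0 in all 4 water libraries and between 1431 and 2338 in all 6 olive oil/acetone libraries. Eif2s3y, Uty and Kdm5d were split in the same way at their own levels. By these transcripts, which only male cells make, the treated libraries held male RNA and the water libraries did not. So in every treatment comparison below, the treatment and the sex of the animals cannot be told apart. Hair shaft and inner root sheath markers (8 of 9 present in all libraries) summed to 11038 in control water replicate 2 and 2418 in knockout olive oil/acetone replicate 2, against 130 to 751 in the other 8 libraries. These 2 libraries also stood high for several members, so results are given with and without them.

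IL-36 agonist transcripts were far higher after olive oil/acetone than after water. Averaged over both genotypes, Il1f6 rose by 4.03 ± 0.51 (SE) and Il1f8 by 4.09 ± 0.57 on the log2 scale, about 16.3-fold and 17.1-fold, and Il1f9 rose by 2.59 ± 0.33, or 6.02-fold. The antagonist Il1f5 rose with them by 2.27 ± 0.37, or 4.83-fold. Il33 and Il18, cytokines that the epidermis also makes, differed by less than these and also passed the test, at 0.86 ± 0.22 and 1.25 ± 0.36. Il1a, Il1rn, Il1b and Il1rl2 did not pass the test. Here and below, "called" means a Benjamini-Hochberg adjusted p under 0.05 among the 15958 genes that limma tested on log2(value + 1), a scale that understates the change of low genes. In that average 6 of 10 members were called, all higher, whereas 6.88% of all genes tested were called higher. The members' median log2 difference was 1.11 and that of all genes -0.02.

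**Figure D1:**
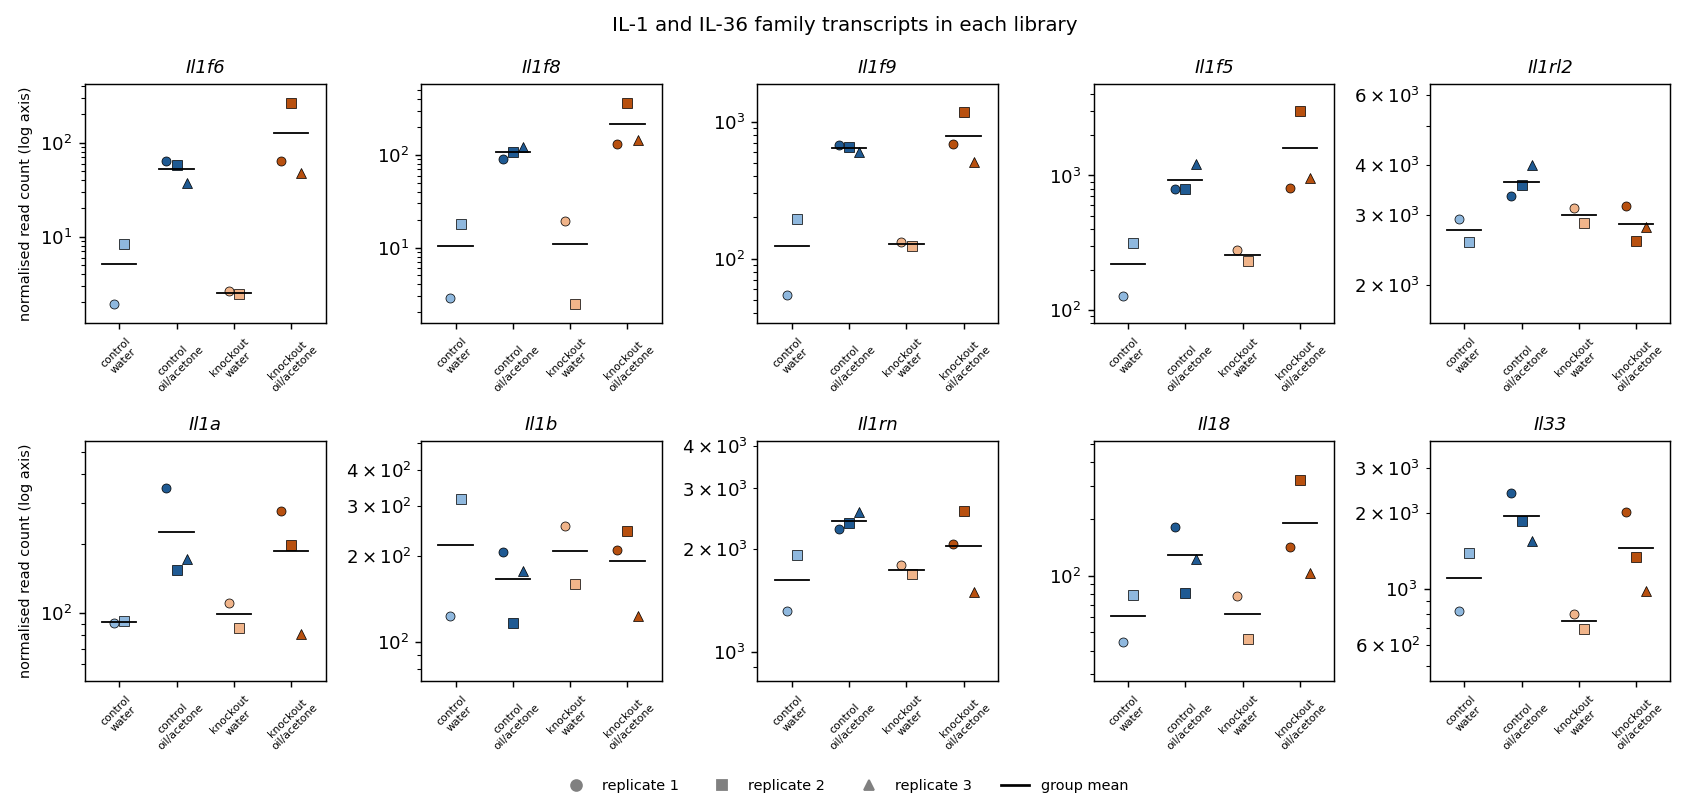
Normalised read count of each member (log axis, 1 panel a gene) in every library, grouped by genotype and treatment, with symbols for replicates and bars for group means. For Il1f6, Il1f8, Il1f9, Il1f5 and Il18 all 6 olive oil/acetone libraries lie above all 4 water libraries, and knockout olive oil/acetone replicate 2 is the highest library for each of these 5 genes.

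Il1f6 (IL-36α) was nearly silent under water. In controls it measured 63.7, 57.3 and 37.3 normalised counts after olive oil/acetone against 1.92 and 8.43 after water. In knockouts it measured 64.2, 266 and 47.2 against 2.65 and 2.43. The treated and water libraries did not overlap in either genotype, and the spread among treated libraries was widest in knockouts, where replicate 2 alone was far above the others. The log2 difference was 3.32 ± 0.72 (SE, adjusted p = 0.141) in controls and 4.74 ± 0.72 (adjusted p = 0.0104) in knockouts. So few reads came from water libraries that counting error matters: 158 reads against 11 in controls gave a ratio of 10.2 (95% exact interval 5.56 to 20.9), and 408 against 5 in knockouts a ratio of 50.8 (21.6 to 157), intervals that cover counting error only.

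Il1f8 (IL-36β) showed the same order of groups. Controls measured 91.6, 108 and 122 after olive oil/acetone and 2.88 and 17.8 after water. Knockouts measured 132, 370 and 147 against 19.4 and 2.43. Water libraries of both genotypes were split between a lower and a higher one, and every treated library lay above them. On the log2 scale Il1f8 differed by 3.65 ± 0.81 (SE, adjusted p = 0.147) in controls and by 4.54 ± 0.81 (adjusted p = 0.0147) in knockouts. Summed reads were 316 against 22 in controls, a ratio of 10.2 (6.64 to 16.6), and 696 against 24 in knockouts, a ratio of 18.1 (12.0 to 28.4).

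Il1f9 (IL-36γ) was the most abundant IL-36 agonist. It measured 676, 656 and 601 in treated controls, 53.8 and 195 in water controls, 681, 1185 and 510 in treated knockouts and 131 and 123 in water knockouts. Treated controls lay close together and the highest water library still had less than any treated one. Treated minus water, it differed by 2.64 ± 0.47 on the log2 scale (SE, adjusted p = 0.0854) in controls and 2.54 ± 0.47 (adjusted p = 0.0154) in knockouts. The limma p-values before adjustment were 0.000177 in controls and 0.000238 in knockouts. Adjustment turned that order, since it depends on the p-values of all genes in a comparison. In controls Il1f9 was past the threshold with a replicate block, with DESeq2, without control olive oil/acetone replicate 1, without control water replicate 2 and without both libraries rich in hair shaft RNA. Its log2 difference in controls ranged from 1.72 to 3.56 over the 23 alternatives tried. Counted per kilobase of exon, Il1f9 made up 54.3% to 73.6% of the summed IL-36 agonist transcripts in treated libraries and 80.8% to 94.0% in water libraries, and the 2 ranges did not overlap.

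Il1f5, the antagonist of the IL-36 receptor, measured 792, 790 and 1211 in treated controls and 128 and 315 in water controls. In knockouts it measured 802, 3004 and 958 against 281 and 231. Every treated library was above every water library, and knockout replicate 2 was again apart from the rest. The log2 difference was 2.18 ± 0.53 (SE, adjusted p = 0.181) in controls and 2.37 ± 0.53 (adjusted p = 0.0235) in knockouts. On the per-kilobase scale the ratio of Il1f5 to the summed agonists was 0.316, 0.319 and 0.531 in treated controls against 0.765 and 0.492 under water, and 0.300, 0.505 and 0.440 in treated knockouts against 0.635 and 0.649 under water. The knockout groups did not overlap in this ratio and the control groups did. No test was run on it.

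Il1rl2, the receptor that these 4 ligands share, varied little between groups. It measured 3335, 3553 and 3994 in treated controls and 2921 and 2563 in water controls, and 3160, 2582 and 2799 in treated knockouts against 3126 and 2855. Treated controls lay above water controls, while the knockout groups overlapped. Its log2 difference was 0.40 ± 0.15 (SE, adjusted p = 0.302) in controls and -0.07 ± 0.15 (adjusted p = 0.743, 95% interval -0.40 to 0.25) in knockouts, where it was 0.049 with libraries scaled to equal totals. Summed agonist transcripts per kilobase were 558, 552 and 507 in treated controls, 37.2 and 142 in water controls, 595, 1324 and 484 in treated knockouts and 98.7 and 79.3 in water knockouts. The ratio of Il1rl2 to that sum was 2.64 to 11.5 in water libraries and 0.286 to 1.16 in treated ones, with no overlap.

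**Figure D2:**
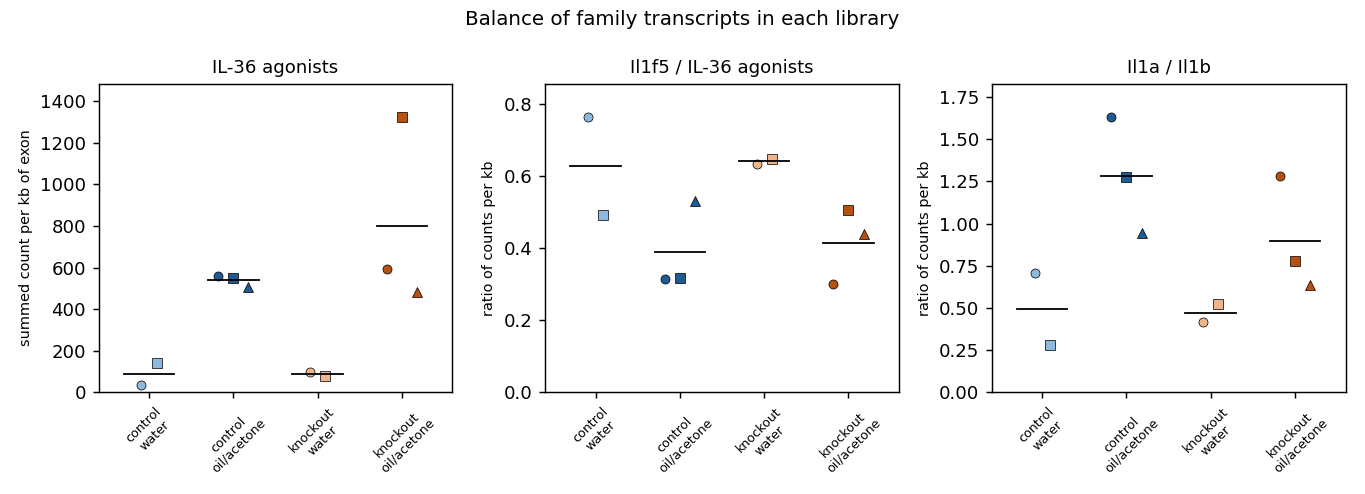
Summed IL-36 agonist transcripts (normalised counts per kb of exon), the ratio of Il1f5 to them and the ratio of Il1a to Il1b in each library, with bars for group means. The agonist sum is 484 or more in every treated library and 142 or less in every water library.

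The classical IL-1 ligands differed from the IL-36 genes and from each other. Il1a, an alarmin stored in keratinocytes, measured 349, 154 and 172 in treated controls and 90.3 and 92.8 in water controls, and 277, 198 and 81.1 in treated knockouts against 111 and 86.4. Controls did not overlap, while knockout replicate 3 lay below both its water libraries. Log2 differences were 1.19 ± 0.49 (SE, adjusted p = 0.346) in controls and 0.74 ± 0.49 (adjusted p = 0.295) in knockouts, and their average of 0.97 ± 0.34 had an adjusted p of 0.0805. That average was past the threshold with a replicate block, with DESeq2 and without knockout olive oil/acetone replicate 3.

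Il1b, the ligand processed by inflammasome caspases, showed no such order. It measured 206, 117 and 177 in treated controls and 123 and 316 in water controls, and 209, 245 and 123 in treated knockouts against 256 and 159. The groups overlapped in both genotypes, and the highest of all 10 libraries was control water replicate 2. The log2 difference was -0.28 ± 0.44 (SE, adjusted p = 0.818) in controls and -0.13 ± 0.44 (adjusted p = 0.855) in knockouts, and its sign turned when single libraries were left out (0.40 without control water replicate 2). Averaged over genotypes, the 95% interval ran from -0.89 to 0.48. The per-kilobase ratio of Il1a to Il1b was 1.63, 1.27 and 0.942 in treated controls against 0.709 and 0.284 under water, and 1.28, 0.779 and 0.639 in treated knockouts against 0.420 and 0.524, with no overlap within either genotype.

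Il1rn, the antagonist of the IL-1 receptor, was among the most abundant members. It measured 2279, 2380 and 2562 in treated controls and 1315 and 1922 in water controls, and 2058, 2576 and 1496 in treated knockouts against 1794 and 1684. The control groups did not overlap and the knockout groups did. Log2 differences of Il1rn were 0.60 ± 0.23 (SE, adjusted p = 0.315) in controls and 0.20 ± 0.23 (adjusted p = 0.555) in knockouts. Per kilobase, Il1rn was 1.45 to 3.09 times the sum of Il1a and Il1b over all libraries, and the 4 groups overlapped.

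Il18, whose product is also released after caspase cleavage, measured 181, 81.2 and 123 in treated controls against 44.2 and 78.7 under water, and 142, 323 and 104 in treated knockouts against 78.5 and 46.2. The lowest treated library was just above the highest water library. Neither genotype passed the test on its own, at 1.03 ± 0.51 (SE, adjusted p = 0.422) in controls and 1.47 ± 0.51 (adjusted p = 0.0732) in knockouts, and the average of 1.25 ± 0.36 did (adjusted p = 0.0474). That call was lost with no trend and without any of 7 libraries, which were treated control replicates 2 and 3, control water replicate 1, treated knockout replicates 2 and 3 and both knockout water libraries (adjusted p up to 0.188).

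Il33, a nuclear alarmin read by immune cells through Il1rl1, measured 2389, 1860 and 1551 in treated controls against 820 and 1390 under water, and 2019, 1340 and 984 in treated knockouts against 796 and 696. Each genotype was free of overlap, but treated knockout libraries reached down into the range of water controls. The log2 difference was 0.83 ± 0.31 (SE, adjusted p = 0.308) in controls and 0.90 ± 0.31 (adjusted p = 0.0741) in knockouts. The averaged call (adjusted p = 0.0351) was lost with no trend and without any of 5 libraries, treated control replicate 2, control water replicate 1, treated knockout replicate 2 and both knockout water libraries (adjusted p up to 0.150).

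**Figure D3:**
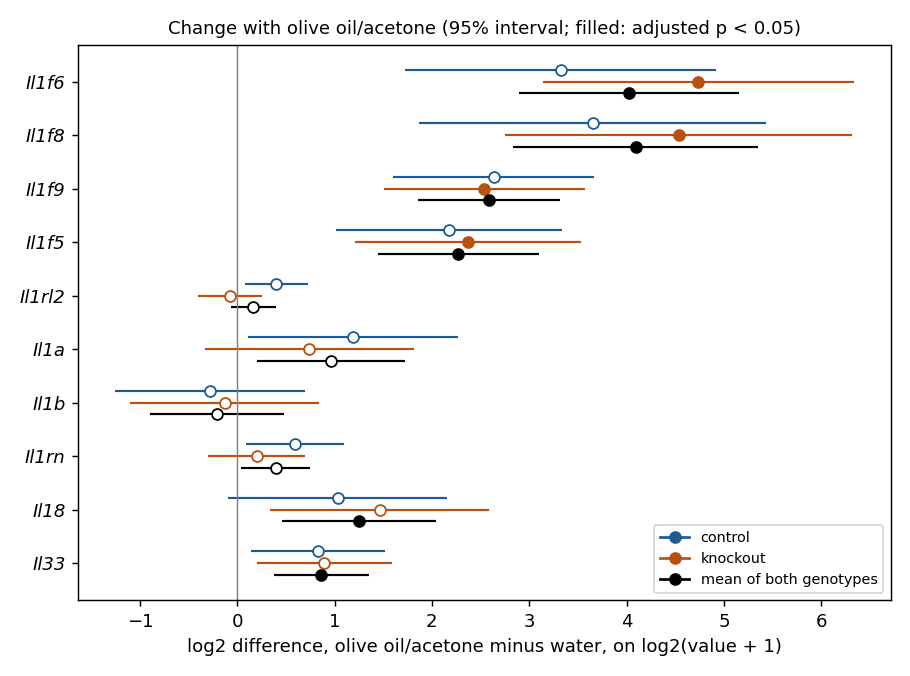
Log2 difference of each member, olive oil/acetone minus water, in controls, in knockouts and averaged, with 95% intervals (filled points have an adjusted p under 0.05). The 4 IL-36 ligand genes lie between 2.18 and 4.74 in all 3 comparisons, and Il1b and Il1rl2 lie close to 0.

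Within controls 0 of 10 members were called, where 0.0627% of all genes were called (10 genes, the Y-linked Ddx3y among them). Unadjusted p-values under 0.05 were found for 8 of the 10 members, against 12.9% of all genes. Treated controls lay above water controls without overlap for 9 of 10 members, all except Il1b, against 12.2% of all genes. The members' median log2 difference was 1.11 and that of all genes 0.00. DESeq2 called 4 members in this comparison, the 4 IL-36 ligand genes, and edgeR's quasi-likelihood test called 0. Without both libraries rich in hair shaft RNA limma called 3 (Il1f5, Il1f6 and Il1f9), when 0.196% of all genes were called higher.

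Within knockouts 4 of 10 members were called, all higher, the 3 IL-36 agonists and Il1f5, against 6.74% of all genes called higher. Treated libraries lay above water libraries without overlap for 6 of 10, these 4 with Il18 and Il33, against 28.8% of all genes. The median was 1.18 for the members and 0.01 for all genes. The same 4 were called without both libraries rich in hair shaft RNA, when 3.33% of all genes were called higher. Leaving out either knockout water library ended all 4 calls, with adjusted p-values up to 0.102 for Il1f6, 0.122 for Il1f8, 0.131 for Il1f9 and 0.161 for Il1f5, and the call of Il1f5 also ended without treated knockout replicate 3 and with no trend. Over all genes 9 or 34 were then called in place of 2143. Over both genotypes all 6 treated libraries lay above all 4 water libraries for Il1f5, Il1f6, Il1f8, Il1f9 and Il18, 5 of 10 members, against 4.49% of all genes. The averaged differences of the 4 IL-36 ligand genes stayed past the threshold in all 21 alternatives.

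Markers of other cells in the epidermis were summed as well, and several sums differed between these groups. Single markers said below to rise or fall were called. Over all genes 6.74% were called higher and 6.69% lower in knockouts, and 6.88% and 5.92% in the average. How the marker calls fare with libraries left out is not given here, and Mrc1 was low in water knockouts, at 7.06 and 6.08. Langerhans and dendritic cell markers (9 of 9 present) summed to 12372 to 17296 in treated controls, 17092 to 47407 in water controls, 26863 to 46110 in treated knockouts and 21773 to 23482 in water knockouts. Macrophage and monocyte markers (9 of 9) summed to 429 to 561, 735 to 1212, 710 to 1311 and 437 to 475 in the same order of groups, and 4 of 9 rose in knockouts (C1qa, C1qb, C1qc and Mrc1). Treated knockouts were above water knockouts in both sums, whereas treated controls were below water controls for macrophages and overlapped with them for Langerhans cells. Of the Langerhans and dendritic cell markers, Mfge8 rose in knockouts by 1.81 ± 0.37 (SE, adjusted p = 0.0193). In the average Mfge8 rose by 0.95 ± 0.26 (adjusted p = 0.0417), whereas Fcer1g fell, at -0.88 ± 0.25 (adjusted p = 0.0450). T cell markers (9 of 10) summed to 7260 to 17443, 17109 to 25700, 9369 to 14979.5 and 13142 to 14023, and 1 of 9 (Xcl1) fell in the average. Endothelial markers (6 of 6) summed to 103 to 246, 231 to 276, 332 to 477 and 118 to 232, and 1 of 6 (Pecam1) rose in knockouts. Endothelial sums of treated knockouts lay above those of every other library. Of 8 neutrophil markers 3 were present in all files, not the defining Ly6g, and summed to 77.7 to 158, 135 to 447, 99.3 to 292 and 102 to 134, with Cxcr2 called higher and Mmp9 lower in the average. Mast cell markers (3 of 6) summed to 92.7 to 175, 245 to 257, 209 to 280 and 141 to 160, and none was called. Fibroblast markers (6 of 6) summed to 4466 to 6101, 2984 to 10284, 2266 to 5407 and 4540 to 7468, and sebocyte markers (6 of 6) to 3453 to 6929, 7419 to 9164, 5276 to 13819 and 6955 to 7950. In knockouts Lum of the former fell and Elovl3 of the latter rose. Keratinocyte markers summed to 1078860 to 1252280 in treated controls and 787119 to 870647 in water controls, and to 870128 to 1204760 against 903259 to 903717 in knockouts. In the average 2 of 12 rose, Krt1 by 1.76 ± 0.26 (SE, adjusted p = 0.00563) and Lor by 1.49 ± 0.34 (adjusted p = 0.0265), both of differentiating layers. Krt15 and Trp63, both of basal cells, fell by 0.59 ± 0.14 (adjusted p = 0.0284) and 0.59 ± 0.17 (adjusted p = 0.0458). The other 8 were not called, among them the differentiation markers Krt10 and Ivl, whose treated and water libraries overlapped over both genotypes. The part of these markers in the results was not tested, and in bulk RNA a change in the number of cells of a type and a change in RNA per cell cannot be told apart.

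Per kilobase of exon, a rough scale for setting genes side by side, Il33, Il1rl2 and Il1rn led in both water groups. The lengths count all annotated exons of a gene, 883 bases for Il1f6 and 5535 for Il1rn, not the transcripts expressed. Ranks and per-kilobase ratios between genes, here and above, rest on these lengths. Under water, Il1rl2 was at 403 and Il33 at 383 in controls, which overlapped, and Il1rl2 was at 439, Il1rn at 314 and Il33 at 259 in knockouts, which did not overlap. Il1f8 and Il1f6 were lowest, at 8.50 and 5.86 in controls and 8.97 and 2.88 in knockouts, and overlapped with each other. After olive oil/acetone Il1f9 moved up to 391 in controls, where it was the fourth and still below Il1rn at 435 without overlap. In treated knockouts it was at 481, between Il33 at 502 and Il1rl2 at 418, and overlapped with both. All neighbours in the order of treated knockouts overlapped. Il1b was the fourth in both water groups and the ninth in both treated groups.

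**Figure D4:**
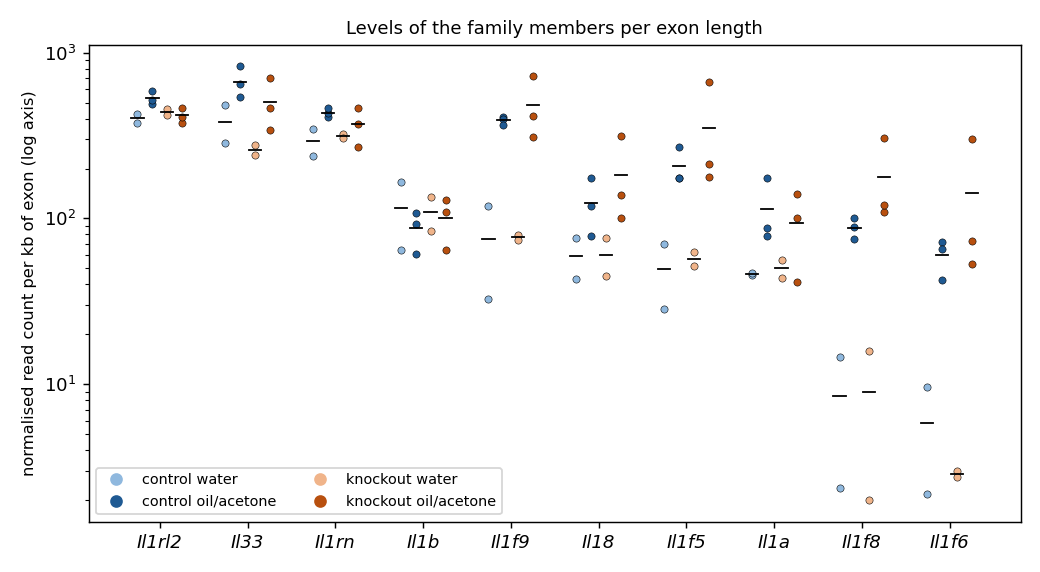
Normalised read count per kb of exon (log axis) of the 10 members in every library, ordered from the highest to the lowest mean in control water libraries, with bars for group means. Il1f8 and Il1f6 are below 20 in every water library and at 42.3 or more in every treated one.

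The IL-36 ligand genes also varied together. Over the 10 libraries Pearson's r on log2(value + 1) between any 2 of Il1f5, Il1f6, Il1f8 and Il1f9 was 0.948 to 0.971, and Il18 had r of 0.868 to 0.903 with them. Il1b had r of -0.316 to 0.399 with the other 9 members. These are descriptions over libraries that share treatment groups, and Il1f5, Il1f6, Il1f8 and Il1f9 are neighbours on chromosome 2. The genes most like each member by r were chosen from those with a mean of 50 or more. Il1f9 was most like Flg (0.977), which encodes the barrier protein filaggrin, and Slurp1 (0.976). Il1f5 was most like Casp14 (0.986), a caspase of cornifying cells, and Icam5 (0.985). Il1a was most like Kprp (0.989) and Lce1b (0.982), both of the cornified layer. Il1f8 was most like Kcnk6 (0.982) and Pdss2 (0.981), Il18 most like Hax1 (0.972) and Lrrc28 (0.957), and Il33 most like AL805899.1 (0.967) and Dnttip1 (0.959). Il1rl2 was most like Nbr1 (0.942) and Cdk2 (0.938), Il1rn most like Rpl17-ps5 (0.976) and Sfxn5 (0.930), and Il1b most like Grk5 (0.904) and Ppp1r11 (0.903).

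No member was called between genotypes. Under olive oil/acetone 0 of 10 members and 0 of 15958 genes (0.0%) were called with limma, while 1908 genes, or 12.0%, had an unadjusted p under 0.05. The targeted Gsdma3 was among the genes not called, at -6.2 ± 0.71 (SE, adjusted p = 0.0560), so a missing call does not show equal levels. For the same comparison edgeR called 0 genes and DESeq2 168. Members ranged from -0.46 (Il33, 95% interval -1.07 to 0.16) to 0.85 (Il1f8, -0.74 to 2.45) in log2 difference, knockout minus control, with a median of 0.20 against 0.02 for all genes. Il1rl2, the IL-36 receptor, had the lowest p of the members: all 3 treated knockouts lay below all 3 treated controls, at -0.35 ± 0.13 (SE, adjusted p = 0.370, 95% interval -0.64 to -0.06). Il1f8 was the only member with all treated knockouts higher, where 8.55% of all genes were higher without overlap and 8.23% lower.

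Under water limma called 0 of 10 members and 0 genes (0.0%). Gsdma3 was again not called, at -6.14 ± 0.87 (SE, adjusted p = 0.407). There, 4.98% of genes (795) had an unadjusted p under 0.05, DESeq2 called 6 genes and edgeR 0. Members ranged from -0.57 (Il1f6, 95% interval -2.32 to 1.18) to 0.34 (Il1f5, -0.93 to 1.62), with a median of 0.07 against -0.01 for all genes. Il33 was lower in both water knockouts than in both water controls, at -0.52 ± 0.34 (SE, adjusted p = 0.963), where 17.8% of all genes were lower without overlap. With 2 libraries a group, the intervals of Il1f6 held a change of over 1 log2 unit either way.

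The interaction, which asks whether the response to olive oil/acetone differed between genotypes, was called for 0 of 10 members and 0 genes (0.0%) with limma. Unadjusted p-values under 0.05 were found for 1897 genes (11.9%), edgeR called 0 genes and DESeq2 169. So the calls of IL-36 genes in knockouts and their absence in controls do not show a difference between genotypes. Among members the interaction ran from -0.48 ± 0.21 (SE) for Il1rl2 (adjusted p = 0.410, 95% interval -0.94 to -0.02) to 1.41 ± 1.02 for Il1f6 (adjusted p = 0.550, -0.84 to 3.67), with a median of 0.11 against 0.03 for all genes. Without both libraries rich in hair shaft RNA the interaction of Il1f6 was -0.18.

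The other genes of the pathway were taken as lists by role. Il1f10, the remaining ligand of the chromosome 2 cluster, measured 16.7 ± 4.93 (SD, n = 3) and 9.87 ± 9.89 (SD, n = 2) in treated and water controls and 15.0 ± 9.09 (SD, n = 3) and 5.69 ± 0.559 (SD, n = 2) in knockouts. With all 10 libraries in the fit it was not called, at 1.08 in the average (adjusted p = 0.142). Its averaged difference was 1.42 without both libraries rich in hair shaft RNA. Of 10 receptor genes 8 were tested. In knockouts 2 of 8 fell after olive oil/acetone, Il1r1, the signalling IL-1 receptor, by 0.83 ± 0.22 (SE, adjusted p = 0.0363) and Il1r2, its decoy, by 0.96 ± 0.23 (adjusted p = 0.0285), against 6.69% of all genes called lower. Il1r1 measured 1198, 745 and 894 in treated knockouts against 1781 and 1523 under water, and Il1r2 measured 1648, 1128 and 849 against 2343 and 2204. Treated and water knockouts did not overlap for either receptor, and in controls the log2 differences were -0.09 and -0.03. Both calls were lost with no trend, without treated control replicate 2, without treated knockout replicate 2 or 3, and without both libraries rich in hair shaft RNA. They also ended without either knockout water library, as did the knockout calls of all other pathway genes named below. Averaged over genotypes 1 of 8 fell, Il18r1, a chain of the IL-18 receptor, by 0.85 ± 0.22 (adjusted p = 0.0349), against 5.92% of all genes called lower. It measured 225 ± 68.8 (SD, n = 3) against 536 ± 101 (SD, n = 2) in controls and 319 ± 93.3 (SD, n = 3) against 415 ± 37.2 (SD, n = 2) in knockouts. T cell markers, given above, also summed to less in 2 of 3 treated controls than in either water control, and their part in this call was not tested. With 8 of 21 alternatives Il18r1 was no longer called. Il1rap, the shared accessory chain, was not called in any comparison with limma, at -0.58 in knockouts (adjusted p = 0.0726). The receptors' median log2 difference was -0.35 in controls and -0.34 in knockouts.

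Of 25 signalling genes tested, 0 were called in controls, while in knockouts 7 fell and 1 rose (Tab1, an adaptor of the kinase TAK1), against 6.69% of all genes called lower and 6.74% called higher. The genes that fell were Nfkb2, Rel, Relb, Tab3, Tnfaip3, Tollip and Traf6, among them NF-κB subunits, the ubiquitin ligase Traf6 and inhibitors of the pathway. Tollip, an inhibitor of IL-1 receptor signalling, fell by 0.90 ± 0.16 (SE, adjusted p = 0.0146), Traf6 by 0.85 ± 0.19 (adjusted p = 0.0230) and Tnfaip3, the NF-κB feedback inhibitor A20, by 1.14 ± 0.31 (adjusted p = 0.0411). Rel fell by 1.00 ± 0.27 (adjusted p = 0.0398) and Relb by 0.71 ± 0.19 (adjusted p = 0.0374). The abundant genes Nfkbia and Nfkbiz were not called, at -0.43 (adjusted p = 0.283) and -0.55 (adjusted p = 0.172). The list's median was -0.40 in knockouts, -0.05 in controls and -0.28 in the average. The averaged median was -0.31 without both libraries rich in hair shaft RNA. Without both libraries rich in hair shaft RNA 2 of 25 were called in knockouts (Tollip and Traf6), against 3.13% of all genes called lower. Of the knockout calls, those of Traf6, Tnfaip3, Rel, Relb, Nfkb2, Tab3 and Tab1 were also lost with no trend and without treated knockout replicate 2 or 3, and the last 5 without treated control replicate 2. Those of Tab3 with equal totals and of Tab1 with edgeR and without treated knockout replicate 1 were lost too. Averaged over genotypes 3 of 25 fell, Tnip1, Tollip and Traf6, against 5.92% of all genes called lower. The averaged call of Tnip1 was lost in 14 of 21 alternatives, edgeR and all single libraries left out but treated control replicate 1 among them (adjusted p up to 0.178). Those of Tollip and Traf6 were lost with no trend and without any of 7 libraries (adjusted p up to 0.126 and 0.153), which were those that ended the averaged call of Il18.

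Of 26 genes of processing and release 19 were tested, among them caspases, inflammasome sensors and gasdermins. In controls 0 were called and in knockouts 3 of 19 rose, against 6.74% of all genes called higher. Aim2, a sensor of cytosolic DNA, rose by 1.42 ± 0.27 (SE, adjusted p = 0.0156), Gsdmc by 2.23 ± 0.60 (adjusted p = 0.0387) and Gsdmd, the pore that inflammatory caspases open, by 1.45 ± 0.40 (adjusted p = 0.0416). Gsdmc measured 465, 1989 and 903 in treated knockouts against 189 and 212 under water, and 238, 379 and 271 in treated controls against 73.0 and 272. Knockouts did not overlap and controls did. Without both libraries rich in hair shaft RNA 2 of 19 were called in knockouts (Aim2 and Gsdmc), against 3.33% of all genes called higher. The knockout calls of Gsdmc and Gsdmd were also lost with no trend, without treated control replicate 2 and without treated knockout replicate 2 or 3. Averaged over genotypes 2 of 19 rose, against 6.88% of all genes called higher, Aim2 by 1.04 ± 0.19 (adjusted p = 0.0126) and Gsdmc by 1.63 ± 0.42 (adjusted p = 0.0367). The averaged call of Aim2 was lost without control water replicate 1 or knockout water replicate 1 (adjusted p up to 0.0769), and that of Gsdmc with no trend and without any of the 7 libraries that ended the averaged call of Il18 (adjusted p up to 0.150). The most abundant genes of the list, Anxa2, Capn1 and Capn2, were not called in any of the 3 treatment comparisons. The list's median was -0.10 in controls, 0.34 in knockouts and 0.001 in the average. The averaged median was 0.08 without both libraries rich in hair shaft RNA.

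Among known keratinocyte targets of IL-1 and IL-36 signalling, Krt6a and Defb14 rose in knockouts. Of 29 genes 21 were tested, 0 were called in controls and 2 of 21 rose in knockouts, near the 6.74% of all genes called higher there. The list's medians were -0.03 in controls and 0.06 in knockouts. Krt6a, a keratin of activated epidermis, measured 7530, 10850 and 9483 in treated knockouts against 1287 and 1506 under water, a rise of 2.72 ± 0.50 (SE, adjusted p = 0.0154). In controls it measured 3019, 2737 and 2108 against 970 and 4825, where the water libraries lay on either side of the treated ones. Defb14, an antimicrobial peptide, measured 67.3, 61.1 and 29.2 in treated knockouts against 11.5 and 4.87, a rise of 2.56 ± 0.63 (adjusted p = 0.0305), and 54.8, 26.8 and 47.2 in treated controls against 3.84 and 15.9, a difference of 2.22 ± 0.63 (adjusted p = 0.223). In knockouts both calls were also lost without treated knockout replicate 3, and that of Defb14 with no trend and without treated knockout replicate 2. Both were called averaged over genotypes, again 2 of 21 where 6.88% of all genes were called higher. The averaged call of Krt6a was lost with no trend and without treated control replicate 2, treated knockout replicate 2 or 3 or either knockout water library (adjusted p up to 0.119), and that of Defb14 without control water replicate 1 or knockout water replicate 2 (adjusted p up to 0.0680). Of the 3 most abundant targets, Krt16 differed by 0.17, Icam1 by -0.95 and Ptgs2 by 0.28 in that average, and none was called with limma. The neutrophil-attracting chemokine gene Cxcl1 measured 2352, 805 and 514 in treated controls and 770 and 615 in water controls, and 1253, 738 and 226 in treated knockouts against 529 and 596, so the treated groups lay on both sides of the water libraries. Without both libraries rich in hair shaft RNA 1 of 21 was called in knockouts (Krt6a), against 3.33% of all genes called higher, and 5 of 21 in the average (Defb14, Krt6a, Lcn2, S100a8 and S100a9), against 9.02%. In the genotype comparisons and the interaction 0 genes of these lists were called.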

How the data were processed

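RNA of 10 libraries was analysed, grouped by genotype and treatment as labelled. The deposited values are a signal per gene, read counts divided by a size factor. The submitters' processing notes name the build GRCm38 (mm10) and, as tools, DESeq2 1.26.0, featureCounts 2.0.0 and Trimmomatic 0.38. An aligner, an annotation release and a strand setting were not given in the sources used here. In each library all values (100%, tolerance 0.1 read) were multiples of 1 step, which recovered whole reads. Replicates of a group differed beyond sampling noise (chi-square per degree of freedom 11.4 to 86.1). All 17983 gene identifiers matched GENCODE (GRCm38), whose exon lengths, taken over all annotated exons of a gene, were used.

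Of 15987 genes listed in all 10 files, 15958 reached 10 in 2 or more libraries and were tested, after median-of-ratios rescaling (factors 0.995 to 1.004). limma 3.58.1 (R 4.3.3, eBayes with trend) was fitted to log2(value + 1) with 4 group means over all 10 libraries, two-sided, with Benjamini-Hochberg adjustment over all genes tested. Adjusted p-values are limma's where no tool is named. A pseudocount, filters, scalings, a replicate block, edgeR 4.0.16 and DESeq2 1.42.0 on the recovered reads, and each library left out were tried as alternatives. The fit was tested on simulated data. The members and gene lists were chosen with earlier results of these data known. Named genes were all members, the 3 most abundant and up to 4 called genes of each list, the 2 genes most like each member with a mean of 100 or more, and the targeted genes. Cxcl1, the cell markers named singly, Tab1 and the genes listed by name beside a count were added after their values were seen.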

Additional observations from a re-analysis of the deposited data

How the results depend on the processing

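Of the single-gene results of the members, 792 kept their direction and side of the threshold under an alternative, 21 came past the threshold, 24 lost it and 11 changed sign. With single libraries left out, Il1b ranged from -0.96 to 0.40 in controls, from -0.47 to 0.21 in knockouts and from -0.54 to 0.14 in the average, and without both libraries rich in hair shaft RNA it was 0.40 in controls and 0.033 in the average. Il1rl2 in knockouts was 0.049 with equal totals. Between genotypes under water Il1f6 ranged from -1.42 to 0.27 and Il1f5 from -0.31 to 0.99 with single libraries left out, and Il1f6 was 0.27 without both libraries. The interaction of Il1f6 was -0.18 without both libraries. The replicate numbers are not said to mark a shared animal or day, and deviations of same-numbered libraries did not all go together (r 0.307, -0.105 and 0.131 between treated controls and treated knockouts). Same-numbered r was highest between water controls and treated knockouts, at 0.41 and 0.45. It was 0.022 and 0.058 between treated and water knockouts. With a replicate block, 58 genes and 2 members (Il1f6 and Il1f9) were called in controls, against 10 and 0 without it.

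Counts of genes called moved most. In controls DESeq2 called 353 genes and 4 members. Leaving out both libraries rich in hair shaft RNA, an alternative chosen after seeing the data, gave 33 and 3, and single libraries left out gave 6 to 470 genes and 0 to 1 members. In knockouts the 2143 genes became 3892 with only the groups compared, 3612 with DESeq2, 803 with no trend, 1023 without both libraries and 9 to 3141 without single libraries. Members called there ranged from 0 to 4 without single libraries and from 3 to 6 under the other alternatives. Under olive oil/acetone the genotype comparison gave 2 genes with only the groups compared, 168 with DESeq2 and 0 to 51 without single libraries. Under water it gave 6 with DESeq2, 1 without both libraries and 0 to 1 without single libraries. The interaction gave 169 with DESeq2 and 0 to 72 without single libraries. The averaged 2043 genes became 3586 with DESeq2, 815 with no trend and 164 to 4155 without single libraries. The cause was not tested. edgeR on the recovered reads called 7 genes in controls, 1927 in knockouts and 1997 in the average, with the same number of members called as limma. Where a library left out leaves 1 in its group, that library is assumed to vary like the others. With 2 or 3 libraries a group and 5 to 24 reads of Il1f6 or Il1f8 in the water groups, differences between genotypes were hard to detect. This held for large ones too, since the targeted Gsdma3 was not called in either genotype comparison.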
